A study of Homo sapiens with 4 samples.

Results

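Peaks on the decoy sequence hs37d5 and on contigs whose names begin with GL were taken from 4 ATAC-seq peak lists by sequence name alone, with no measured value in the rule. Of 299609 called peaks, 3810 met it. They comprised 1143 peaks in SKBR3 and 1184 in T47D, 370 in HCT116 and 1113 in RKO. ATAC-seq uses a transposase that inserts sequencing adapters into accessible DNA, and a peak is a stretch where the inserted fragments pile up above the local background.

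The GL contigs are pieces of human sequence that the assembly could not place on a chromosome, or could assign to a chromosome without a position. The decoy hs37d5 is an added record that joins many human sequences missing from the assembled chromosomes, so that reads from them have a place to align. Neighbouring positions on it need not be neighbours in the genome. Both hold many repeats, and a repeat that the assembly holds in fewer copies than the genome can gather the reads of all its copies. GL000220.1 is the contig that carries ribosomal DNA, the tandemly repeated genes for 18S, 5.8S and 28S ribosomal RNA that RNA polymerase I transcribes in the nucleolus.

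The series concerns the control of PVRL4 transcription by FOS family proteins, and holds 1 library each from SKBR3 and T47D, established breast cancer lines, and HCT116 and RKO, established colorectal cancer lines. All 4 were labelled wild type, and the labels give no treatment. The medium was RPMI for T47D, DMEM for RKO, and McCoy's 5A for both SKBR3 and HCT116. Because each line had 1 library, line, culture medium and library cannot be told apart, and values below carry no replicate error and no test between lines.

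Tags left at distinct positions numbered between 1057628 (HCT116) and 5450100 (T47D), and duplicates made up 47% to 63% of the tags. T45D is the input name in the header of the list deposited under T47D, which was used as T47D. The tissue labels were not checked at marker genes, because no gene annotation of the hg19 build was used here. Intervals are exact Clopper-Pearson 95% intervals and cover counting error only.

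Decoy and GL contig peaks formed a small share of every list, highest in RKO and lowest in HCT116. The share was 1.64% in RKO (interval 1.55 to 1.74), 1.51% in T47D (1.42 to 1.59), 1.01% in SKBR3 (0.956 to 1.07) and 0.919% in HCT116 (0.828 to 1.02), out of all peaks on these contigs and on chromosomes 1 to 22 and X. They covered 215 kb in RKO, 285 kb in T47D, 254 kb in SKBR3 and 72.5 kb in HCT116. The 2 lines with the highest shares, RKO and T47D, are of different tissues.

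The order of the lines below RKO changed when lists of equal length were compared. Each list was limited to its 40269 peaks with the highest −log10 q, the length of the HCT116 list, where q is the peak caller's adjusted p. RKO then had 625 peaks on the decoy and GL contigs (1.55%, interval 1.43 to 1.68), T47D 398 (0.988%, 0.894 to 1.09), HCT116 370 (0.919%) and SKBR3 264 (0.656%, 0.579 to 0.739). The intervals of T47D and HCT116 overlapped, while those of RKO and SKBR3 overlapped with no other line. Among peaks with a −log10 q of at least 10 the shares were 0.938% in RKO and 0.961% in T47D, against 0.596% in SKBR3 and 0.577% in HCT116, so RKO no longer stood above T47D.

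**Figure D1:**
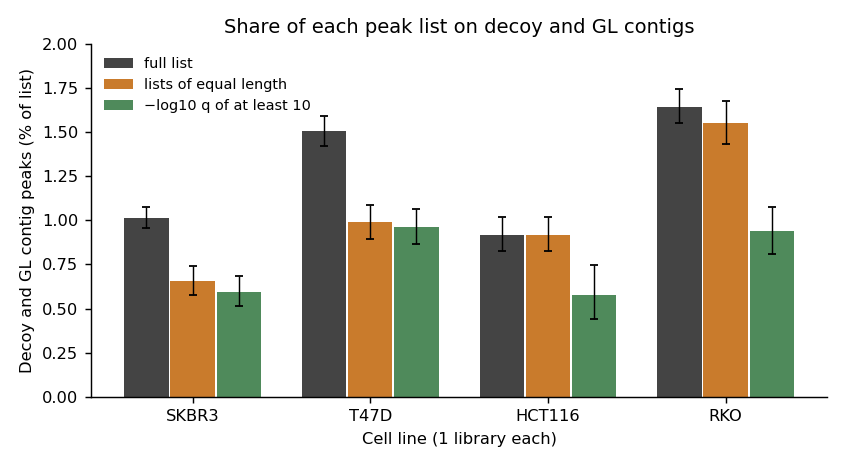
Share of peaks on the decoy and GL contigs, as a percentage of each line's list (y axis), for the full lists, for lists cut to equal length and for peaks with a −log10 q of at least 10. Error bars are exact 95% intervals; RKO is highest at 1.64% in the full lists and 1.55% at equal length, and is level with T47D among the strongest peaks.

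The decoy held most of these peaks, with 902 in SKBR3 and 925 in T47D, 270 in HCT116 and 889 in RKO. That was 78.9%, 78.1%, 73.0% and 79.9% of the decoy and GL contig peaks of each line. The ribosomal contig GL000220.1 held 34, 43, 27 and 44 peaks in the same order of lines, and the other GL contigs together 207, 216, 73 and 180. The number of peaks on GL000220.1 varied less between lines than the number on the decoy, and its share of the decoy and GL contig peaks was highest in HCT116 at 7.30% (interval 4.86 to 10.4) and lowest in SKBR3 at 2.97% (2.07 to 4.13).

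Of 55 GL contigs with a peak in any line, 25 had one in all 4 lines, 15 lacked it in 1 line, 9 had one in 2 lines and 6 were limited to 1 line. T47D had peaks on 50 of them, SKBR3 on 47, RKO on 42 and HCT116 on 30. On 9 GL contigs at least 1 list held 10 or more peaks, and these differed in which line had most.

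GL000225.1 had 22 peaks in RKO, against 7 in T47D, 5 in SKBR3 and 1 in HCT116. Merged across lines these made 28 regions, of which 17 were called in RKO only and 0 in all 4 lines. Over the chromosomes 14.8% of regions were called in RKO only and 11.8% in all 4 lines. The RKO peaks were spread along the contig, with a pileup (tags stacked at the summit) between 3 and 24, and 1 of them reached a −log10 q of 10. The local background that the peak caller had set against a peak, recovered from its pileup and fold, had a median of 8.79 times the genome-wide level over these peaks in RKO, against 1.62 in SKBR3, 2.03 in T47D and 2.48 in HCT116. Its part in the count was not tested.

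SKBR3 led on GL000192.1, with 32 peaks against 16 in T47D, 14 in HCT116 and 13 in RKO. Of the 40 merged regions there, 17 were called in SKBR3 only and 5 (12.5%) in all 4 lines. Over the chromosomes 30.5% of regions were called in SKBR3 only and 11.8% in all 4 lines. GL000222.1 also had most peaks in SKBR3, 13 against 4, 1 and 5 in T47D, HCT116 and RKO, and 9 of its 16 regions were called in SKBR3 only. SKBR3 had the longest list, so an excess there has to be read against its 112778 peaks.

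T47D had most peaks on GL000214.1, with 15 against 10 in RKO, 6 in SKBR3 and 1 in HCT116, and on GL000228.1, with 11 against 6 in SKBR3 and 4 each in HCT116 and RKO. RKO led on GL000223.1, with 12 peaks against 6 each in SKBR3 and T47D and 1 in HCT116. GL000195.1 and GL000205.1 had close raw counts in the 4 lines, although the lists ran from 40269 peaks in HCT116 to 112778 in SKBR3. GL000195.1 had 14 peaks in SKBR3 and 16 in T47D, 10 in HCT116 and 15 in RKO, and GL000205.1 had 9, 12, 9 and 14.

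**Figure D2:**
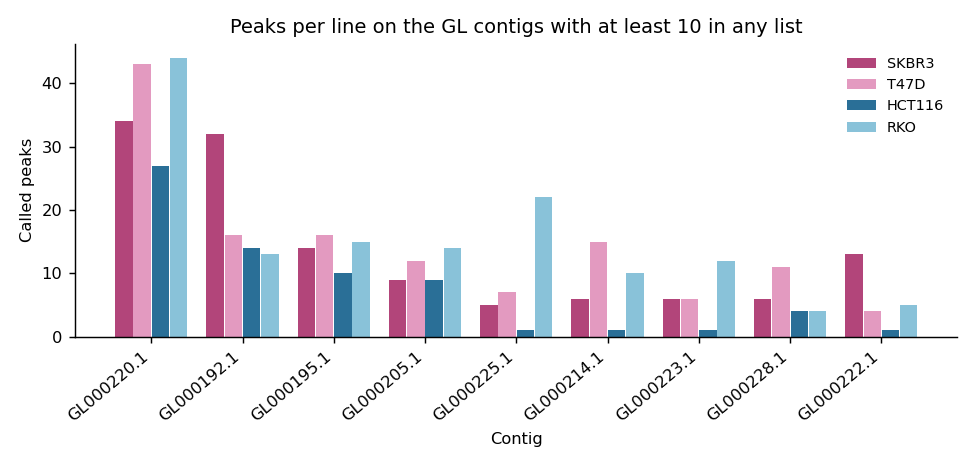
Number of called peaks (y axis) on each of the 9 GL contigs with at least 10 peaks in any list (x axis), with 1 bar per line. GL000225.1 rises to 22 in RKO, GL000192.1 to 32 in SKBR3 and GL000214.1 to 15 in T47D. GL000195.1 and GL000205.1 are nearly level in these counts, which are not scaled to list length.

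GL000220.1 carried tall peaks on a very high background in all 4 lines. Its median pileup was 102 tags in SKBR3 and 69 in T47D, 60 in HCT116 and 65 in RKO, and its highest was 143, 141, 106 and 110. Most of its peaks lay in the top 10% of pileup of their list, 28 of 34 in SKBR3 and 24 of 43 in T47D, 23 of 27 in HCT116 and 34 of 44 in RKO. In the same lists 10.4%, 10.2%, 9.30% and 10.1% of the chromosome peaks did so.

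The fold enrichment, the authors' ratio of pileup to local background with 1 tag added to each, was low on the same contig. Its median was 2.39 in SKBR3 and 2.62 in T47D, 2.86 in HCT116 and 2.37 in RKO, against 5.41, 7.38, 5.62 and 5.37 over the chromosome peaks. The added tag lowers the ratio most at a low background, and the median background of chromosome peaks was 0.30, 0.50, 0.16 and 0.22 tags in that order. In the lowest 10% of fold lay 21 of the 34 peaks in SKBR3 and 30 of 43 in T47D, 19 of 27 in HCT116 and 30 of 44 in RKO, where the chromosome peaks had 7.86%, 10.7%, 10.1% and 9.38%. Many peaks of this contig thus stood high in their list by pileup and low by fold, while some, described below, stood high by both.

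The recovered background on GL000220.1 rose to 70.8 tags in SKBR3 and 74.7 in T47D, 35.3 in HCT116 and 43.5 in RKO. These were 408, 363, 908 and 369 times the genome-wide level of the library. Over the chromosome peaks the highest background was 70.1 tags in SKBR3 and 68.1 in T47D, 57.3 in HCT116 and 73.5 in RKO. That was 404, 331, 1474.5 and 624 times the genome-wide level, above the contig in HCT116 and RKO and below it in SKBR3 and T47D. Since 1 tag was kept per position and strand, a base can stack at most 234 tags in SKBR3 and 220 in T47D, 214 in HCT116 and 210 in RKO. The highest background on GL000220.1 was 30.3%, 34.0%, 16.5% and 20.7% of that limit, which bounds the pileup a peak could reach above it.

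The high background fell in 2 blocks at nearly the same place in every line, taken as the peaks whose background was at least 40% of the highest on the contig (a level set after the values were seen). The left block ran from 104366 to 119985 in SKBR3 and 104313 to 119976 in T47D, 104444 to 119866 in HCT116 and 104926 to 120421 in RKO, with 11, 11, 11 and 15 peaks. The right block ran from 148432 to 161745, 148353 to 161757, 148361 to 161733 and 149347 to 161771 in the same order, with 8, 7, 9 and 11 peaks. Positions are those of the deposited lists, on hg19 with hs37d5 sequence names.

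Inside the left block the median fold was 1.74 in SKBR3 and 1.67 in T47D, 2.59 in HCT116 and 1.96 in RKO. In the right block it was 1.92, 1.96, 2.62 and 2.14. The background that defines the blocks enters the fold, so a low fold there follows in part from the definition. In RefSeq's table of the GRCh38.p14 assembly the ribosomal genes follow each other on a sequence of unknown chromosome in the order RNA45SN5 (the precursor), RNA18SN5, RNA5-8SN5 and RNA28SN5, and the ribosomal pseudogenes RNA18SP3 and RNA5-8SP8 come after them. That table names no contig of hg19, so no peak was assigned to a gene.

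**Figure D3:**
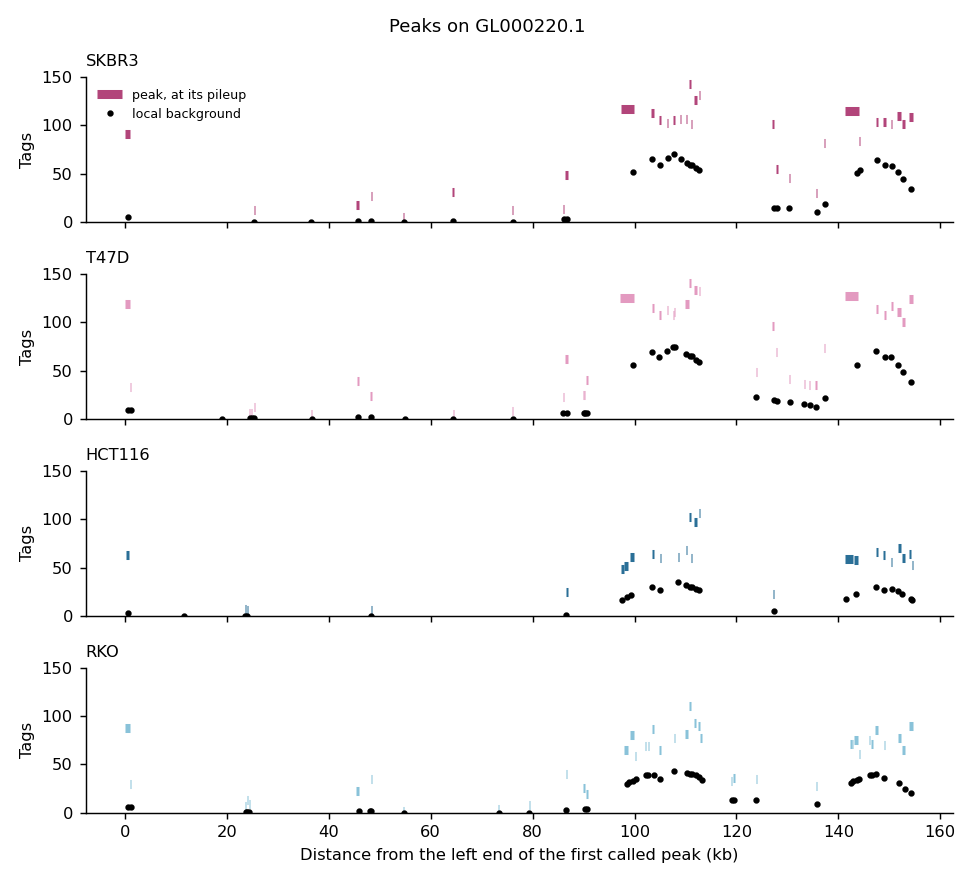
Peaks on GL000220.1 in the 4 lines, drawn at their pileup (coloured bars, y axis in tags) with the recovered local background (black dots), against distance in kb from the left end of the first called peak. In every line the background stands high in 2 blocks near the right of the plot. The far-left peak has a high pileup over a background lower than in the blocks.

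Some summits of the contig recurred at one distance. Among 2304 pairs of summits of a line that lay over 10 kb apart on GL000220.1, 19 were 43969 bp apart within 50 bp, with 3 pairs in SKBR3 and 4 in T47D, 5 in HCT116 and 7 in RKO. In 1 of the RKO pairs, 61757 and 105702, the left summit lay outside the blocks. The distance was found by looking for the most common one, and the next most common, 25346 bp, had 12 pairs.

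The same pairs of places recurred between lines. A summit at 110565 in both T47D and HCT116 was matched by one at 154537 in T47D and 154539 in HCT116. Summits at 106815 in SKBR3 and 106820 in T47D were matched by 150793 and 150792. Near the right ends of the blocks, summits at 117292 in SKBR3, 117278 in T47D and 117276 in HCT116 were matched by 161297, 161248 and 161250. Pairs from different lines that use the same places are not independent of each other, and without the contig's sequence it was not tested whether the blocks are copies.

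A high pileup and a high fold met elsewhere on GL000220.1. Positions 7086 to 8030, singled out after the values were seen, had a pileup of 91 tags in SKBR3 and 119 in T47D, 63 in HCT116 and 88 in RKO. The fold was 14.0, 12.1, 15.9 and 13.7, and the background 32.2, 43.4, 77.9 and 46.8 times the genome-wide level. Its summits fell within 40 bp of each other. Positions 93508 to 94114, also singled out afterwards, had 49, 62, 25 and 40 tags with a fold of 12.9, 9.06, 12.5 and 10.1 in SKBR3, T47D, HCT116 and RKO. Both regions lay above the chromosome median of fold in all 4 lines.

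The strongest shared regions lay mostly on the ribosomal contig. Regions called in all 4 lines were ordered by the lowest of their 4 percentile ranks of pileup. Of the first 10, 7 lay on GL000220.1 and 1 each on hs37d5, GL000205.1 and GL000195.1. The first was hs37d5 positions 7364151 to 7365709, with a pileup of 118 tags in SKBR3 and 179 in T47D, 111 in HCT116 and 127 in RKO. Its fold was 9.11, 8.20, 14.9 and 7.76, and its summits lay within 67 bp of each other. It had the highest pileup of all decoy and GL contig peaks in T47D, HCT116 and RKO.

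The next 3 lay together at the right end of the left block of GL000220.1. Positions 117792 to 118118 had 143, 141, 102 and 110 tags in SKBR3, T47D, HCT116 and RKO, with a fold of 2.38, 2.14, 3.28 and 2.69. Positions 119638 to 119985 had 132, 132, 106 and 90 tags, with summits within 16 bp of each other. Positions 118748 to 119312 had 126, 133, 97 and 93 tags. These 3 were the highest decoy and GL contig peaks of SKBR3, and the first also came second in T47D and RKO.

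GL000205.1 positions 87133 to 87767 had 115 tags in SKBR3 and 130 in T47D, 73 in HCT116 and 95 in RKO. The fold was 5.15, 4.28, 5.92 and 3.80. A neighbouring region of that contig, 84787 to 86990, gave the third-highest pileup in RKO, 96 tags. GL000195.1 positions 30558 to 33271 had 104, 134, 66 and 92 tags with a fold of 5.16, 4.97, 6.14 and 5.02. That region was 2714 bp wide, was split into 2 peaks in HCT116 and RKO, and had summits 1698 bp apart. The remaining 4 of the first 10 were GL000220.1 positions 117022 to 117696, 154260 to 154844, 158555 to 159425 and 110294 to 110881.

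By fold another decoy region led. Positions 6743472 to 6743924 of hs37d5, named here after the values were seen, had the highest fold of the decoy and GL contig peaks in SKBR3 (24.1), HCT116 (20.8) and RKO (24.0), and 17.5 in T47D. Its pileup was 72, 75, 34 and 75 tags in SKBR3, T47D, HCT116 and RKO, and its summits lay within 18 bp of each other. Chromosome peaks reached further on both scales. Their highest pileup was 196, 195, 176 and 188 tags and their highest fold 39.9, 41.3, 41.7 and 45.4 in SKBR3, T47D, HCT116 and RKO.

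Chromosome peaks above the highest decoy or GL contig pileup numbered 8 in SKBR3 and 2 in T47D, 12 in HCT116 and 9 in RKO. Of these, 7, 2, 9 and 6 lay on chromosome 1, all in a single stretch between positions 564486 and 570279.

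Most decoy and GL contig regions were called in a single line. The 3810 peaks merged into 2308 regions, of which 1470 (63.7%, interval 61.7 to 65.7) were called in 1 line, 446 in 2, 224 in 3 and 168 (7.28%, 6.25 to 8.42) in all 4. Over the chromosomes 60.0% of regions were called in 1 line and 11.8% in all 4. The share called in all 4 lines was thus below that of the chromosomes, and with lists of equal length it remained so, at 86 of 988 regions (8.70%, interval 7.02 to 10.6) against 16.2%.

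HCT116 was the shallowest library. Without it, 328 of 2251 regions (14.6%, interval 13.1 to 16.1) were called in all 3 other lines, against 16.1% over the chromosomes. The share stayed below that of the chromosomes, by a smaller gap. The sharing also differed by sequence. On GL000220.1 17 of 58 regions (29.3%) were called in all 4 lines, and on hs37d5 115 of 1851 (6.21%).

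In the full lists RKO had the most regions of its own, 515 of the 1470 called in a single line (35.0%, interval 32.6 to 37.5). On the chromosomes RKO had 24.6% of the single-line regions. T47D had 453 (30.8%, against 19.2%) and HCT116 57 (3.88%, against 5.30%). SKBR3 had 445 (30.3%), against 50.9% over the chromosomes. With lists of equal length RKO had 336 of 626 single-line regions (53.7%, against 27.8%) and SKBR3 60 (9.58%, against 28.9%). T47D then had 119 (19%, against 19.7%), so its excess was not seen at equal length, and HCT116 111 (17.7%, against 23.5%). Among peaks with a −log10 q of at least 10, T47D led instead, with 169 of 287 single-line regions (58.9%, against 43.1%). RKO then had 58 (20.2%, interval 15.7 to 25.3, against 16.1%), SKBR3 55 (19.2%, against 38.2%) and HCT116 5 (1.74%, against 2.64%).

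Regions called in exactly 2 lines were most often those of SKBR3 and T47D, the breast lines, with 216 (9.36% of regions, against 12.4% over the chromosomes). HCT116 and RKO, the colorectal lines, alone shared 22 (0.953%, against 1.61%). T47D and RKO, of different tissues, alone shared 103 (4.46%, against 1.92%), and SKBR3 and RKO 75 (3.25%, against 2.29%).

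The order of the pairs changed with lists of equal length. T47D and RKO then alone shared 56 regions (5.67%, against 2.25%), HCT116 and RKO 55 (5.57%, against 5.03%), and SKBR3 and T47D 44 (4.45%, against 8.0%). At both settings the share of T47D and RKO lay above that of the chromosomes and the share of the breast pair below it. Regions of SKBR3, T47D and RKO without an HCT116 call numbered 160 in the full lists (6.93%, against 3.85%) and 18 at equal length (1.82%, interval 1.08 to 2.86, against 1.62%).

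**Figure D4:**
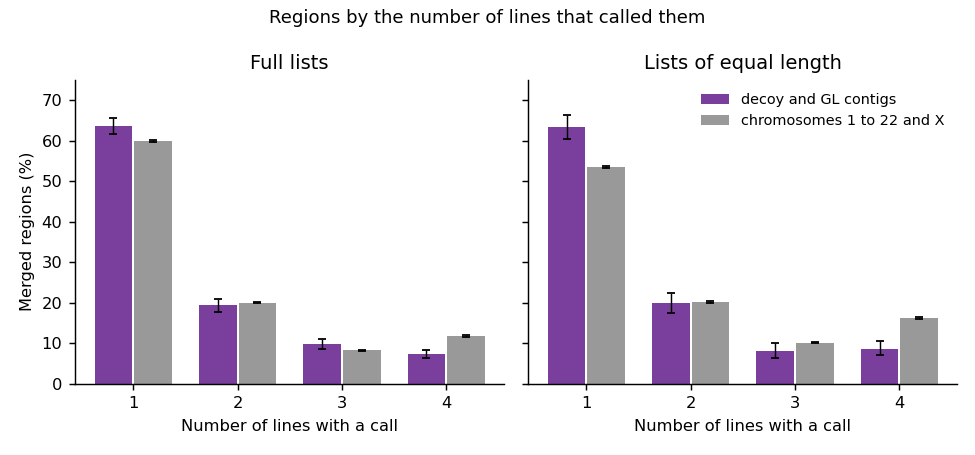
Share of merged regions (y axis, %) by the number of lines that called them (x axis), for decoy and GL contigs and for chromosomes, in full lists and in lists of equal length, with exact 95% intervals. Decoy and GL contig regions called in all 4 lines make up 7.28% against 11.8% in the full lists and 8.70% against 16.2% at equal length.

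Overlap with any other line was higher than on the chromosomes in SKBR3 and lower in T47D and RKO. In SKBR3 61.1% of the decoy and GL contig peaks overlapped a call of another line, against 54.2% of the chromosome peaks. In T47D it was 61.7% against 75.1%, and in RKO 53.7% against 62.8%. HCT116 had 84.6% against 86.6%. Strong peaks, with a −log10 q of at least 10, overlapped in 89.1% of cases in SKBR3, against 81.6% of strong chromosome peaks. The share was 87.2% in RKO (against 89.2%) and 84.8% in T47D (against 91.3%), and 58 of 58 did so in HCT116 (against 97.3%).

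The overlap of the colorectal pair was lower on these contigs than on the chromosomes when taken from RKO. HCT116 called a peak at 20.5% of the RKO decoy and GL contig peaks, against 39.8% of its chromosome peaks. This was not particular to the pair. HCT116 also called 20.2% of those of T47D, against 33.9%, and 19.4% of those of SKBR3, against 24.8%. RKO called a peak at 64.9% of those of HCT116, against 68.7%. For the breast pair, T47D called 52.1% of the SKBR3 peaks, against 47%, and SKBR3 called 49.7% of those of T47D, against 67.0%.

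Where all 4 lines called a region, the summits were about as close as on the chromosomes. In 70 of 168 regions (41.7%, interval 34.1 to 49.5) the 4 summits lay within 50 bp of each other, against 38.4% over the chromosomes, which is inside the interval. The median span was 59.5 bp (quartiles 36 and 142), against 63 bp (38 and 99). On GL000220.1 5 of 17 such regions (29.4%) met the 50 bp limit, with a median span of 84 bp, and on hs37d5 51 of 115 (44.3%) did.

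Decoy and GL contig peaks were narrower than chromosome peaks in every list. Their median width was 165 bp in SKBR3 and 174 in T47D, 143 in HCT116 and 148 in RKO, against 199, 211, 168 and 168 bp. GL000220.1 went the other way, with medians of 328.5, 275, 350 and 264.5 bp. The widest peaks of the set were 2693, 2737, 1637 and 2463 bp. Decoy and GL contig peaks with a −log10 q of at least 10 had wider medians, 324, 305, 244 and 249 bp. Such peaks were a smaller share here than on the chromosomes, and widths were not compared at equal strength.

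By pileup the typical decoy or GL contig peak sat near the middle of its list. The median percentile rank of pileup was 44.1 in SKBR3 and 48.8 in T47D, 51.0 in HCT116 and 55.1 in RKO, against 50.2, 48.8, 51.0 and 50.5 for chromosome peaks. By fold it sat lower in every list, at 36.7, 28.6, 39.5 and 43.6. The median fold was 4.37, 5.35, 4.94 and 5.00, below the chromosome medians given for the ribosomal contig above.

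The top of the pileup range was split. In the top 10% lay 74 of the peaks in SKBR3 (6.47%) and 74 in T47D (6.25%), 52 in HCT116 (14.1%) and 82 in RKO (7.37%), so 3 lines fell below their chromosome share and HCT116 lay above. Without GL000220.1 the HCT116 share was 8.45%, below its chromosome share of 9.30%, and the other lines had 4.15% to 4.49%. In the top 1% lay 35 (3.06%), 25 (2.11%), 31 (8.38%) and 36 (3.23%), against 0.964%, 1.0%, 0.977% and 0.978% of the chromosome peaks. Most of these were on GL000220.1, with 23, 20, 21 and 27. Without that contig the top 1% held 1.08% of the peaks in SKBR3 and 0.438% in T47D, 2.92% in HCT116 and 0.842% in RKO, so SKBR3 and RKO were close to their chromosome share, T47D below and HCT116 above it.

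Strong calls were fewer than on the chromosomes. A −log10 q of at least 10 was reached by 201 peaks in SKBR3 (17.6%, against 30.0%) and 362 in T47D (30.6%, against 48.2%), 58 in HCT116 (15.7%, against 25.1%) and 195 in RKO (17.5%, against 30.9%). In the lowest 10% of fold were 150 (13.1%), 262 (22.1%), 58 (15.7%) and 141 (12.7%), each above its chromosome share. Without GL000220.1 the shares were 11.6% in SKBR3, 20.3% in T47D, 11.4% in HCT116 (interval 8.21 to 15.2) and 10.4% in RKO (8.62 to 12.4). The intervals of HCT116 and RKO then held their chromosome shares, 10.1% and 9.38%. T47D had both the most strong calls and the most low-fold calls of the 4 lines.

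Peaks with a local background of at least 10 tags, a level set after the values were seen, were rare, and 20.4% to 59.5% of them lay on these contigs. The genome-wide level was 0.173 tags in SKBR3 and 0.206 in T47D, 0.0389 in HCT116 and 0.118 in RKO. The same 10 tags thus stood furthest above that level in HCT116, and the shares do not compare the lines. In SKBR3 30 of 93 such peaks in the list (32.3%, interval 22.9 to 42.7) lay on the decoy or GL contigs, in T47D 32 of 157 (20.4%), in HCT116 25 of 42 (59.5%) and in RKO 36 of 64 (56.3%). Only 0.0564%, 0.161%, 0.0426% and 0.0420% of the chromosome peaks had such a background. The decoy and GL contig peaks with it lay, over the 4 lines, on 4 sequences. GL000220.1 had 24 in SKBR3 and 26 in T47D, 20 in HCT116 and 29 in RKO, GL000205.1 had 3, 3, 5 and 4, and GL000195.1 and hs37d5 had at most 2 each.

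**Figure D5:**
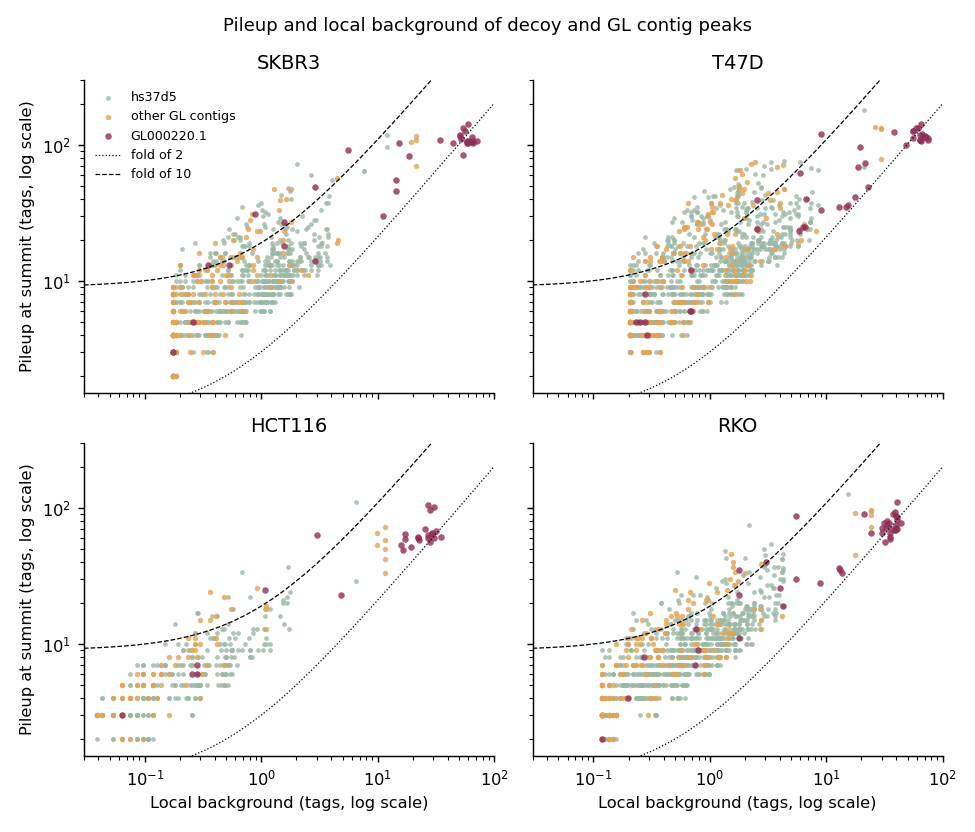
Pileup at the summit (y axis, tags, log scale) against recovered local background (x axis, tags, log scale) for every decoy and GL contig peak, 1 panel per line, with lines at a fold of 2 and of 10. Peaks of GL000220.1 gather at the upper right near a fold of 2, with medians of 2.37 to 2.86 in the 4 lines.

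Close neighbours were more common on the decoy than on the chromosomes, although the median spacing was wider there in SKBR3 and HCT116. Neighbouring summits lay within 1 kb for 15.1% of neighbours in SKBR3 and 21.2% in T47D, 11.9% in HCT116 and 18.5% in RKO, against 10.5%, 12.4%, 8.24% and 12.9% over the chromosomes. The median spacing was 16.5 kb in SKBR3 and 12.7 in T47D, 47.7 in HCT116 and 12.9 in RKO, against 11.2, 13.5, 25.7 and 17.6 kb. Spacing on the decoy is a distance along the joined record.

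Of 311 windows of 100 kb on the decoy with a peak in any line, SKBR3 had a peak in 277, T47D in 267, RKO in 257 and HCT116 in 142. The windows described here were picked by their counts. RKO had 10 peaks in 10300001 to 10400000, where SKBR3 had 2 and T47D and HCT116 had 0. It had 11 in 35100001 to 35200000, against 4, 3 and 1 in SKBR3, T47D and HCT116. SKBR3 had 11 in 6800001 to 6900000, against 6, 1 and 3 in T47D, HCT116 and RKO, and T47D 13 in 19300001 to 19400000, against 4, 4 and 8 in SKBR3, HCT116 and RKO. The window 30000001 to 30100000 was evenly filled, with 7 peaks in SKBR3 and 9 in each other line.

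The tallest region called in a single line lay on GL000220.1 for 3 of the 4 lines, and there its fold was low. In SKBR3 it was 116075 to 116209, with 107 tags and a fold of 1.62. In HCT116 it was 115692 to 115798, with 61 tags and a fold of 1.71, and in RKO 120027 to 120421, with 77 tags and a fold of 2.20. Each lay within the left block of its own line, and the blocks were themselves drawn from called peaks. The RKO region is the last peak of its block, past the block's end in SKBR3 (119985), T47D (119976) and HCT116 (119866).

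T47D differed, with GL000243.1 positions 25536 to 26123 at 47 tags and a fold of 17.2. Away from GL000220.1, a limit set after the values were seen, the tallest of SKBR3 was GL000192.1 positions 182858 to 183152, also with 47 tags, and a fold of 20.9. Those of HCT116 and RKO were on the decoy and lower, with 10 tags at 29917815 to 29917921 and 22 tags at 51320 to 51501. The T47D and SKBR3 regions were thus the tall single-line calls with a high fold.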

How the data were processed

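ATAC-seq peak lists of 4 lines, 1 library each, were used as deposited. The submitters' processing notes name Bowtie2 2.4.1, MACS3 3.0.0b3 and hg19, and the labels give reads of 60 bp. Per the file headers, each library was called alone, single-end, at a q cutoff of 0.1, without a control, with 1 tag kept per position, a background over 10 kb and a modelled fragment of 105 to 117 bp. No shift to the cut site is named there. The sources used here state no mapping-quality filter, so a read that matches several places may have been counted at any of them.

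Each deposited row holds a pileup signal in tags, the authors' fold ratio, and the deposited −log10 p-values and −log10 q-values of MACS3. Pileups are not scaled between libraries, so values were used within a list, and lists were compared by overlap of at least 1 bp. Local background was recovered as (pileup + 1) / fold − 1. Members were rows named hs37d5 or GL, set beside chromosomes 1 to 22 and X. Members, lists and contrasts were chosen with earlier results of these data known. Named regions were the 10 shared regions with the highest lowest pileup rank, each line's 3 highest pileups, each line's tallest unshared region, and contigs with at least 10 peaks in a list. Shares have exact Clopper-Pearson 95% intervals (SciPy 1.17.1). With 1 library per line there was no test. The code was tested on simulated data. Alternatives were stricter q, equal list length, reciprocal overlap, other summit distances, ranks by fold or q, and leaving out GL000220.1 or HCT116. No hs37d5 sequence was used here, so none is printed.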

Additional observations from a re-analysis of the deposited data

How the results depend on the processing

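Of 46 alternatives, 32 moved a value and 14 did not. The order of the lines by member peaks changed at equal list length, and that of RKO and T47D by share of the list with the stricter q. With a −log10 q of at least 10, member peaks numbered 201 in SKBR3 and 362 in T47D, 58 in HCT116 and 195 in RKO, those on hs37d5 136, 258, 33 and 132, those on GL000220.1 17, 14, 7 and 10, and regions called in all 4 lines 32. Those 32 regions made up 6.54%, against 12.0% over the chromosomes at the same limit. The counts on GL000220.1 and by contig at that limit, and the setting without HCT116, were chosen after seeing the data. Median widths at that limit were 324, 305, 244 and 249 bp, wider than over the full lists. At equal list length member peaks numbered 264 in SKBR3, 625 in RKO and 398 in T47D, and regions in all 4 lines 86. A reciprocal overlap of 50% left 55 such regions, and leaving out HCT116 gave 328 in the other 3 lines. Summits were shared in 10.7% of regions within 20 bp, against 9.05% over the chromosomes. Within 100 bp the share was 69.0% (interval 61.5 to 75.9), against 75.8%, so the direction of the difference depended on the limit. The median rank was 36.7, 28.6, 39.5 and 43.6 by fold, and 38.2, 34.9, 41.7 and 43.6 by −log10 q, in SKBR3, T47D, HCT116 and RKO. In HCT116 the rank by −log10 q was counted as not moved, though the rank by pileup was 51.0. Fewer peaks enter under stricter or equal-length lists; for the ranks and summit distances the cause was not tested. No paired analysis was possible because each line has 1 library. Depth limits HCT116 most, where an absent call may be missed signal.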
